A study of Homo sapiens with 60 samples.

Results

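After 12 h of treatment, the transcriptome of 1321N1 cells exposed to arsenic was compared directly with that of 1321N1 cells exposed to cadmium. 1321N1 is an established human astrocytoma line, which the study used as an astrocyte-derived model. Of the 60 libraries of the study, 6 entered this comparison: the 3 libraries titled for arsenic at 12 h and the 3 titled for cadmium at 12 h. Arsenic was given as 2.55 µM sodium metaarsenite and cadmium as 2.3 µM cadmium chloride, concentrations that the study set to equal toxicity in a longer viability assay. The 3 non-treated libraries of 12 h showed which of the metals had moved a gene, and the 6 h and 24 h libraries of the same metals placed the difference in time. A log2 fold change (LFC) above 0 stands here for a higher level with arsenic, and an LFC below 0 for a higher level with cadmium.

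Cells answer to toxic metals with several gene programs that are wired to different sensors. MTF1, a transcription factor that senses zinc, binds metal response elements and drives the metallothioneins, small cysteine-rich proteins that chelate cadmium and zinc, together with the zinc exporter SLC30A1. HSF1 binds heat-shock elements and drives chaperones when unfolded proteins accumulate. NRF2 drives antioxidant genes such as HMOX1, and ATF4 drives amino acid import, amino acid synthesis and tRNA charging when translation initiation is restrained.

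As a reference for the genes below, the 250 bases before the transcript start were read from RefSeq (GRCh38.p14). The genes shown were picked by hand from these programs and not by rank. In the first set, capitals mark each match to the core of the metal response element, TGCACNC or TGCGCNC, on either strand. The metallothionein promoters of MT2A (chr16:56608334-56608583, plus strand), MT1X (chr16:56682220-56682469, plus strand) and MT1B (chr16:56651636-56651885, plus strand) held 7, 4 and 3 matches, and that of SLC30A1 (chr1:211579162-211579411, minus strand) held 1. Of 35116 promoters of this length, 24.8% held at least 1 match, as did 28.5% of the 27305 genes they belong to, 7 of the 14 tested zinc transporters with an entry and each of the 3 tested metallothioneins with one. MT1E and HMOX1 had no promoter entry.
MT2A: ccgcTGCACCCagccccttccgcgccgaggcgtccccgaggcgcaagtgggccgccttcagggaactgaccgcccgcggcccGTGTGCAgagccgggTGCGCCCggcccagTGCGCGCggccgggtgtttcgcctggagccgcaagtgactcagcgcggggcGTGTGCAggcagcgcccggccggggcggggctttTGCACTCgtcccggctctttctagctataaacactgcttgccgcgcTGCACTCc
MT1X: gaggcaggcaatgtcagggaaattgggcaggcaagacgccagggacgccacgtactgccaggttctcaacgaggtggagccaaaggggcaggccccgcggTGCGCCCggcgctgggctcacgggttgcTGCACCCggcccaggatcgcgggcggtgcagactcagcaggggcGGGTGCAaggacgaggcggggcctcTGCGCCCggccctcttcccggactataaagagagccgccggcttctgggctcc
MT1B: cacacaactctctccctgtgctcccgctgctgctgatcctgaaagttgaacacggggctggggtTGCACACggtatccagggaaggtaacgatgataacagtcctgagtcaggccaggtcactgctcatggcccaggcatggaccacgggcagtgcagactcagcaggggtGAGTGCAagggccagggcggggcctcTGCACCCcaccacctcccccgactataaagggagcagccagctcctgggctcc
SLC30A1: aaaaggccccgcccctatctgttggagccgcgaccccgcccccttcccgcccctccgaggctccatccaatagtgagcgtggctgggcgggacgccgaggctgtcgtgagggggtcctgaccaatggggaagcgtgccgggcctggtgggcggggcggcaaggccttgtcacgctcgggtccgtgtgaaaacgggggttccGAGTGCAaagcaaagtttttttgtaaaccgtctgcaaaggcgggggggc

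In the second set, capitals mark matches to a heat-shock element, GAANNTTC or TTCNNGAA, and overlapping matches run together. The promoter of HSPA6 (chr1:161524290-161524539, plus strand) held 3 matches and that of HSPA1A (chr6:31815293-31815542, plus strand) held 1. At least 1 match was present in 11.6% of the 35116 promoters and in 14.0% of the 27305 genes. Among the heat-shock genes tested that had an entry, 19 of 35 held a match, and among those higher with cadmium 12 of 18. The core of the antioxidant response element, TGACNNNGC, was found for 8 of 30 tested NRF2 targets with an entry (13.2% of all genes), and that of the C/EBP-ATF response element, TGATGNAA, for 4 of 26 ATF4 pathway genes (3.89%), both on either strand. A match is a run of letters and not a measured binding site.
HSPA6: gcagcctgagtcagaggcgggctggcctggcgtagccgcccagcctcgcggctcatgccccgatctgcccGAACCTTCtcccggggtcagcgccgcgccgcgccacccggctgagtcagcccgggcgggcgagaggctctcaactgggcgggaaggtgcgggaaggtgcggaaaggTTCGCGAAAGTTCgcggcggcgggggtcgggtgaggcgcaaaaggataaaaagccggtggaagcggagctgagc
HSPA1A: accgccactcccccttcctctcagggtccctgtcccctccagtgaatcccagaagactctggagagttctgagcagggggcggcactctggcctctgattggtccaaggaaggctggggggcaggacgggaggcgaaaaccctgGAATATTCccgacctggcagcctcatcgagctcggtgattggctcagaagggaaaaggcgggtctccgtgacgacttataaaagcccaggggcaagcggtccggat

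The libraries held 3506741 to 3725952 counts with arsenic, 2327396 to 3227059 with cadmium and 3216686 to 3769847 without treatment, and cadmium replicate 1 was the shallowest. In 3′ mRNA sequencing each transcript is read from its 3′ end, so CPM values (counts scaled to a common normalized library size) do not grow with transcript length. Of 14 astrocyte markers, 6 had enough counts to be tested (CD44, VIM, SOX9, GJA1, GLUL and NES), whereas S100B, AQP4, ALDH1L1 and FABP7 were at 0 in all 6 libraries and GFAP had at most 2 counts in any of them. The label of an astrocyte-derived line was thus carried by markers that other cell types also express. Summed counts of the 11 microglia and macrophage markers were 0 to 5 with arsenic and 3 in every cadmium library, and those of the 8 endothelial markers 1 to 4 and 0 to 7. Markers of other lineages were not all absent. The 11 neuron markers summed to 105 to 117 with arsenic and 53 to 82 with cadmium, and 5 were tested. The 9 oligodendrocyte markers summed to 199 to 236 and 116 to 163, and 1 was tested. The labels call the triplicates technical, so the p values may cover only the spread between libraries and not that between independent cultures.

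Cadmium and arsenic differed at 156 of 12341 tested genes (adjusted p under 0.05 and an LFC beyond 1 in size). Of these, 118 genes were higher with cadmium, 0.956% of those tested, and 38 were higher with arsenic, 0.308%. With no condition on the LFC, 478 genes (3.87%) were higher with cadmium and 234 (1.9%) with arsenic. These shares are the background for every list count between the metals below. The median LFC over all tested genes was 0.02. The 3 libraries of one metal lay wholly above those of the other for 1354 tested genes (11%) with arsenic above and 1454 (11.8%) with cadmium above. A lack of overlap is thus common, and the statements on overlap below describe the libraries and are not a test. The cadmium side also held the larger differences: 24 of its 118 genes differed by more than 4-fold, 12 of these averaging 30 counts or more, against 2 of 38 on the arsenic side and 0 with that many counts. Genes higher with arsenic had lower counts, with a median of 30.2 counts per library against 72.4 on the cadmium side. The number higher with arsenic was 24 without arsenic replicate 1, 25 without arsenic replicate 2 and 23 without cadmium replicate 3. In bulk RNA, fewer cells expressing a gene and less RNA per cell cannot be told apart.

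**Figure D1:**
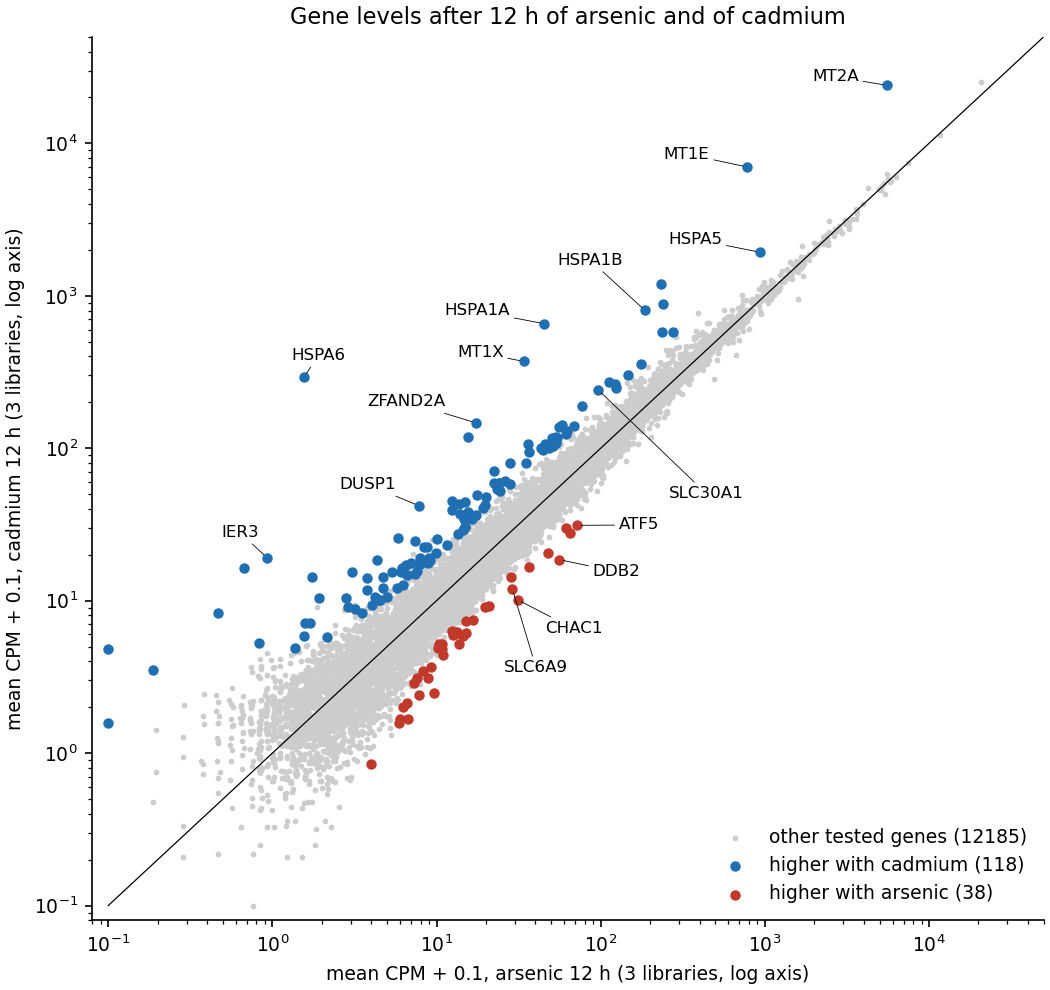
Mean CPM plus 0.1 of each tested gene with arsenic (horizontal, log axis) against cadmium (vertical, log axis), each a mean of 3 libraries, with the 118 genes higher with cadmium in blue and the 38 higher with arsenic in red. HSPA6, HSPA1A, MT1X and MT1E stand farthest above the line of equal levels among abundant genes, while the red points stay close to it.

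The metallothioneins were far higher with cadmium. Of 12 family members, 4 had enough counts to be tested. MT1B entered only through the cadmium libraries, since it had no count with arsenic or without treatment, so the family is summarised by the other 3, MT1E, MT1X and MT2A. Each was higher with cadmium, with a median LFC of -3.16 against 0.02 over all tested genes. Their summed counts took 2.91% to 3.1% of each cadmium library, 0.601% to 0.665% of each arsenic library and 0.272% to 0.506% of each non-treated library. Relative to the non-treated libraries, which both metals share, all 3 were higher with cadmium (background of genes higher with cadmium, 5.19%) and MT1E and MT1X also with arsenic (background 2.37%).

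MT1E (chr16:56625475-56627112, plus strand) had 777, 799 and 766 CPM in the arsenic libraries and 5848, 7360 and 7783 in the cadmium libraries, against 263, 286 and 226 in non-treated cells. The 3 groups did not overlap: arsenic lay above non-treated and far below cadmium. The difference between the metals was an LFC of -3.16 (standard error 0.11, adjusted p = 3.88e-35), of which cadmium contributed a rise of 4.76 and arsenic a rise of 1.60 over the shared non-treated libraries. MT1X had 40.4, 31.3 and 29.7 CPM with arsenic and 346, 397 and 370.1 with cadmium (LFC -3.46, standard error 0.16, adjusted p = 8.41e-28), and again no library of one metal reached the range of the other.

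MT2A was the most abundant of the family. It had 5952, 5619 and 5094 CPM with arsenic, 24963, 22685 and 24324 with cadmium and 4901, 4042 and 2451 in non-treated cells. Every cadmium library thus stood above every other library, whereas the non-treated libraries spread widely and arsenic was not separated from them by the test (LFC 0.55, adjusted p = 0.0845). Between the metals the LFC was -2.11 (standard error 0.19, adjusted p = 1.64e-13). MT1B was read only with cadmium, with 9, 14 and 16 counts in the 3 libraries and 0 counts in all arsenic and non-treated libraries. Against a floor of 3 counts per library, this amounts to a level at least 5.72-fold higher with cadmium, a bound that covers counting error only. Family members share sequence at their ends. Of the 50-base stretches at the 3′ end of MT1X, 34.7% recur in transcripts of other genes, which holds for 18.4% of those of MT1B, 6.19% of those of MT1E and 6.11% of those of MT2A.

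Directly downstream of the same sensor, SLC30A1, the plasma membrane zinc exporter, had 97.8, 94.0 and 97.6 CPM with arsenic and 224, 253 and 246 with cadmium, against 45.3, 46.9 and 39.3 in non-treated cells. Both metals raised it without overlap, arsenic by an LFC of 1.14 and cadmium by 2.46, and the direct difference was -1.32 (standard error 0.12, adjusted p = 1.89e-13). Among 16 tested zinc transporters it was the only one that differed between the metals by an LFC beyond 1. SLC39A14, an importer of zinc and other divalent metals, was higher with cadmium (LFC -0.59, adjusted p = 0.0129), but not without arsenic replicate 1 (adjusted p = 0.1505), arsenic replicate 2 (adjusted p = 0.0734) or cadmium replicate 3 (adjusted p = 0.1223). The zinc importer SLC39A10 was at 10.9, 8.05 and 11.3 CPM with arsenic, 5.44, 4.22 and 8.43 with cadmium and 20.1, 18.5 and 17.6 without treatment. Its metal groups overlapped, and the difference did not pass the test (LFC 0.74, standard error 0.34, adjusted p = 0.227). The remaining 13 transporters did not pass the test, and the median LFC of the 16 was -0.02.

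The heat-shock genes formed the second block. Of 41 tested members, 19 were higher with cadmium, 9 of them by an LFC below -1, and 0 were higher with arsenic, beside backgrounds of 3.87% and 1.9% of all tested genes. Both metals had raised much of the list over non-treated cells, 30 members with cadmium and 19 with arsenic, while 1 was lower with arsenic (background of lower genes 1.74%) and 0 with cadmium (background 2.99%). The median LFC between the metals was -0.27, and the members at the far end of the list are inducible ones.

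HSPA6, an HSP70 that is close to silent in unstressed cells, had 0.841, 1.44 and 2.1 CPM with arsenic, which are 3, 5 and 8 counts. With cadmium it had 291, 288 and 304 CPM. The non-treated libraries had 0.559, 0.309 and 1.31 CPM, so arsenic overlapped non-treated cells while cadmium stood apart from both. The LFC between the metals was -7.61 (standard error 0.26, adjusted p = 2.16e-35), the largest of the comparison among all tested genes, although with so few arsenic counts its size is imprecise.

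HSPA1A, the main stress-inducible HSP70, had 36.4, 54.6 and 44.7 CPM with arsenic, 679.6, 588 and 698 with cadmium and 17.6, 8.65 and 8.64 without treatment. Here arsenic stood above non-treated cells (LFC 1.95) but well below cadmium (LFC between the metals -3.86, standard error 0.16, adjusted p = 3.4e-30). Its neighbour HSPA1B, which encodes nearly the same protein, had 163, 181 and 214 CPM with arsenic and 699.6, 792 and 912 with cadmium (LFC -2.11, standard error 0.15, adjusted p = 9.19e-19), and reads that both copies share could not be assigned to one of them. The HSP40 cochaperone DNAJB1 had 261, 253 and 199.9 CPM with arsenic and 885, 860.1 and 891 with cadmium, without overlap (LFC -1.89, adjusted p = 1.21e-20). ZFAND2A, an arsenite-inducible proteasome-associated protein, was nevertheless higher with cadmium, at 154, 128 and 158 CPM against 25.8, 13.5 and 12.4 with arsenic (LFC -3.09, standard error 0.22, adjusted p = 2.73e-18).

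The small heat-shock protein gene HSPB8 had an LFC of -4.79, on 0 to 4 counts per arsenic library. Smaller differences were those of HSPH1, an HSP110 nucleotide exchange factor, with an LFC of -0.99, the cochaperone BAG3 with -1.01, and DEDD2 and IER5 with -1.41 and -1.27. Among members that unstressed cells also use, HSPE1, the mitochondrial chaperonin cofactor HSP10, was higher with cadmium (LFC -0.63, adjusted p = 3.28e-08), as were the HSP90 cochaperone PTGES3 (LFC -0.32, adjusted p = 0.00936) and the HSP40 DNAJB6 (LFC -0.30, adjusted p = 0.0108). HSPA8 and HSP90AB1 did not pass the test. HSPA8, the constitutive cytosolic HSP70, had an LFC of 0.20 (adjusted p = 0.298) and HSP90AB1, the constitutive HSP90, of -0.03 (adjusted p = 0.868), at 5297, 5036 and 5084 CPM with arsenic and 5418, 5135 and 5234 with cadmium. HSP90AB1 was higher than in non-treated cells with either metal, by an LFC of 0.51 with arsenic and 0.55 with cadmium. Of the 8 subunits of the chaperonin TRiC, which folds actin and tubulin, CCT4, CCT6A and CCT8 were higher with cadmium by an LFC of -0.29, -0.29 and -0.30, but the number of subunits past the test was 1 without arsenic replicate 1 and 0 without cadmium replicate 3.

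**Figure D2:**
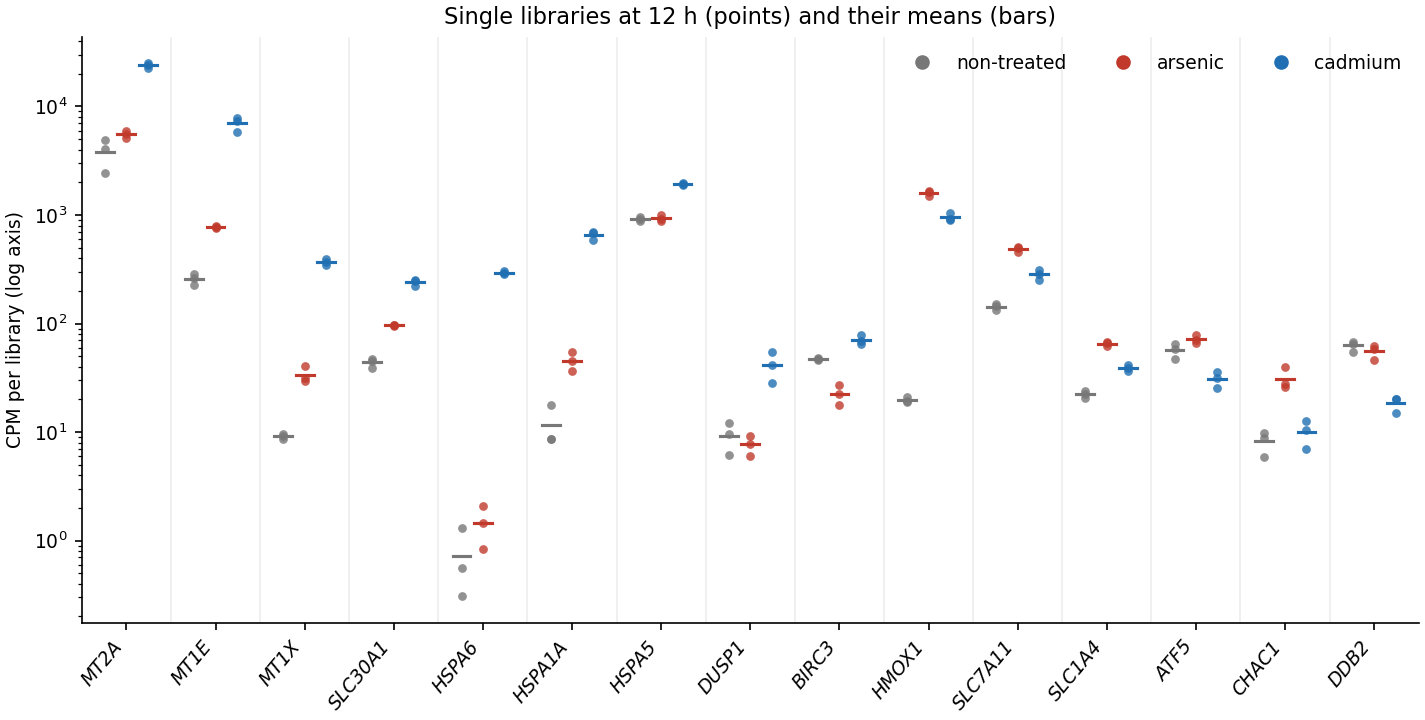
CPM of 15 genes in each 12 h library (points, log axis) with the mean of the 3 libraries (bars) for non-treated, arsenic and cadmium cells. For HSPA6 the arsenic points lie among the non-treated points, with cadmium near 294.5 CPM, whereas for HMOX1 both metals lie far above non-treated cells and arsenic is highest.

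Chaperones of the endoplasmic reticulum (ER) differed mostly through cadmium. Of 34 tested ER chaperones and unfolded protein response genes, 8 were higher with cadmium and 1 with arsenic (backgrounds 3.87% and 1.9%). Their median LFC was -0.19. Without cadmium replicate 3, 5 were higher with cadmium. Relative to non-treated cells, 14 were higher with cadmium and 3 with arsenic (backgrounds 5.19% and 2.37%).

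HSPA5, the ER HSP70 also known as BiP, had 919.7, 992 and 883 CPM with arsenic and 962, 926 and 878 in non-treated cells, groups that overlapped fully. With cadmium it had 1915, 1988 and 1891 CPM, above every other library. The LFC between the metals was -1.05 (standard error 0.08, adjusted p = 5.29e-18), and the LFC of arsenic over non-treated cells 0.01 (adjusted p = 0.965). MANF, a secreted ER stress protein, followed with 188, 209 and 182 CPM with arsenic against 355, 337 and 336 with cadmium (LFC -0.83, adjusted p = 1.03e-11), and the ER chaperone cofactor SDF2L1 had an LFC of -0.68 (adjusted p = 0.00489). XBP1, the transcription factor of the IRE1 branch, went the other way, at 154, 135 and 143 CPM with arsenic, 98.9, 111 and 120.1 with cadmium and 55.1, 60.8 and 63.9 without treatment, so that both metals stood above non-treated cells and arsenic higher (LFC between the metals 0.39, adjusted p = 0.0122). The counts do not tell spliced from unspliced XBP1.

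Signalling genes formed the third block. Of 31 tested immediate-early genes and MAPK feedback regulators, 14 were higher with cadmium (background 3.87%), 7 of them by an LFC below -1. With arsenic 0 were higher (background 1.9%), and the median LFC was -0.74. Without arsenic replicate 1 the number higher with cadmium was 9. Relative to the shared non-treated libraries, 10 members were higher and 0 lower with cadmium (backgrounds 5.19% and 2.99%). With arsenic, 2 were higher and 7 lower (backgrounds 2.37% and 1.74%).

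DUSP1, a phosphatase that switches off p38 and JNK, had 7.85, 6.04 and 9.21 CPM with arsenic, 28.6, 41.9 and 55.1 with cadmium and 6.15, 9.57 and 12.0 without treatment. Arsenic overlapped the non-treated libraries and cadmium lay above both (LFC between the metals -2.44, standard error 0.30, adjusted p = 7.82e-09). IER3, an early gene of ERK signalling, had 0.56, 0.863 and 1.05 CPM with arsenic, which are 2, 3 and 4 counts. With cadmium it had 16.3, 15.6 and 25.3 CPM, again without overlap (LFC -4.46, standard error 0.50, adjusted p = 4.22e-10). Its non-treated libraries had 1 to 6 counts. With arsenic counts this close to the floor of 3 counts per library, the size of the IER3 difference is imprecise. JUN, a subunit of AP-1, was the abundant member that moved both ways: 180.2, 164 and 183 CPM with arsenic, 324, 372 and 376 with cadmium and 274, 288 and 256 in non-treated cells. Its 3 groups did not overlap, with arsenic below (LFC -0.63, adjusted p = 5.99e-08) and cadmium above (LFC 0.39, adjusted p = 0.000558) the non-treated cells and an LFC of -1.02 between the metals (adjusted p = 1.58e-15). KLF2, a zinc finger factor, differed from it in that cadmium left it at the non-treated level (LFC -0.12, adjusted p = 0.862) while arsenic lowered it (LFC -1.48, adjusted p = 0.000585). FOS had at most 3.25 CPM in any of the 6 libraries and did not pass the test.

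Target genes of NF-kB and of YAP and SRF, which respond to cytokines and to cell tension, had the same orientation where they passed the test. In the NF-kB and cytokine list 3 of 19 tested members were higher with cadmium and 0 with arsenic (median LFC -0.23), in the YAP and SRF list 7 of 25 and 0 (median -0.24), and in the matrix and integrin list 5 of 34 and 0 (median -0.21). BIRC3, an inhibitor of apoptosis protein, had 26.9, 22.4 and 17.9 CPM with arsenic, 69.4, 65.3 and 78.7 with cadmium and 46.7, 46.0 and 48.2 without treatment. Like JUN, it was lowered by arsenic (LFC -1.07, adjusted p = 1.83e-06) and raised by cadmium (LFC 0.60, adjusted p = 0.00531), and the metals differed by an LFC of -1.67 (adjusted p = 1.73e-12). TNFAIP3, the feedback inhibitor A20, had 6.16, 9.2 and 6.58 CPM with arsenic and 28.1, 25.0 and 20.7 with cadmium (LFC -1.74, adjusted p = 2.29e-06). It was raised by cadmium (LFC 1.17), and its arsenic and non-treated libraries overlapped.

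CCN1, a matricellular target of YAP, lay below non-treated cells with arsenic (LFC -0.82, adjusted p = 9.93e-05) and was not separated from them with cadmium (LFC 0.21, adjusted p = 0.448), with 127, 151 and 162 CPM with arsenic, 318, 302 and 283 with cadmium and 218, 316 and 246 without treatment (LFC between the metals -1.04, adjusted p = 8.44e-07). ANKRD1, another YAP target, was highest with cadmium, at 176, 187 and 201 CPM against 94.2, 71.0 and 66.8 with arsenic and 61.2, 64.2 and 63.6 in non-treated cells (LFC between the metals -1.28, adjusted p = 5.77e-14). Of the 6 tested astrocyte markers, 2 were higher with cadmium and 0 with arsenic. SOX9, a glial transcription factor, was lowered by arsenic (LFC -0.65) and raised by cadmium (LFC 0.55), with an LFC of -1.20 between them (adjusted p = 1.22e-08), and the adhesion receptor CD44 had an LFC of -0.51 (adjusted p = 2.55e-07). GJA1 (LFC -0.58, adjusted p = 0.0899), VIM (-0.26, 0.246), GLUL (0.11, 0.849) and NES (0.24, 0.869) did not pass.

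Antioxidant genes were raised by both metals in like numbers and divided in direction. Of 39 tested NRF2 targets, 21 were higher than in non-treated cells with arsenic and 20 with cadmium (backgrounds 2.37% and 5.19%). Between the metals 6 were higher with arsenic, 3 with cadmium and 0 by an LFC beyond 1 (backgrounds without a condition on the LFC 1.9% and 3.87%, median LFC 0.13). The 3 higher with cadmium were 0 without arsenic replicate 1 or cadmium replicate 3 and 1 without arsenic replicate 2 or cadmium replicate 2.

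HMOX1, the haem-degrading oxygenase, had 1634, 1666 and 1483 CPM with arsenic, 907, 1040 and 911 with cadmium and 18.7, 19.1 and 21.0 without treatment. The metals did not overlap (LFC 0.74, standard error 0.13, adjusted p = 1.88e-05), but the difference was small beside the rise that each caused, an LFC of 6.34 and 5.60. SLC7A11, the cystine importer that feeds glutathione synthesis, had 453, 510.4 and 500.1 CPM with arsenic, 311, 288 and 252 with cadmium and 135, 152 and 144 without treatment (LFC 0.78, standard error 0.11, adjusted p = 8.02e-08). SQSTM1, the autophagy receptor p62, was higher with arsenic as well (LFC 0.36, adjusted p = 0.00467). CBR3 had the largest LFC of the 6, 0.96 (adjusted p = 0.00388). Its call was lost without arsenic replicate 1 (adjusted p = 0.126) or cadmium replicate 3 (adjusted p = 0.05669). GCLM, the modifier subunit of glutathione synthesis, had 447, 453 and 467 CPM with arsenic and 371, 372 and 389 with cadmium. These groups did not overlap, which holds for 11% of all tested genes in this direction. The LFC of GCLM, 0.27, missed the threshold (adjusted p = 0.0562), as did that of NQO1 in the other direction (LFC -0.17, adjusted p = 0.256). ABCC1, an exporter of glutathione conjugates, had an LFC of -0.91 (adjusted p = 0.0174) that was not significant without arsenic replicate 1 (adjusted p = 0.135), arsenic replicate 2 (adjusted p = 0.06493), cadmium replicate 1 (adjusted p = 0.08561) or cadmium replicate 3 (adjusted p = 0.05452).

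The ATF4 pathway divided within itself. Of 34 tested members, 8 were higher with arsenic and 3 with cadmium (backgrounds 1.9% and 3.87%), with a median LFC of 0.30. Relative to non-treated cells, 25 were higher with arsenic against 15 with cadmium (backgrounds 2.37% and 5.19%). The 8 on the arsenic side were ATF4, ATF5, CHAC1, DDIT4, EIF4EBP1, PHGDH, SHMT2 and WARS1, and the 3 on the cadmium side were PPP1R15A, ATF3 and GDF15, stress genes that have further regulators.

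ATF4 mRNA itself had 765, 721 and 514 CPM with arsenic, 483, 382 and 362 with cadmium and 279, 218 and 305 without treatment, without overlap between the metals (LFC 0.71, standard error 0.13, adjusted p = 7.49e-05). CHAC1, which degrades glutathione, had 39.8, 27.6 and 25.8 CPM with arsenic and 12.7, 10.4 and 7.02 with cadmium, where cadmium overlapped non-treated cells at 5.87, 9.88 and 8.9 (LFC between the metals 1.64, standard error 0.29, adjusted p = 3.47e-05). ATF5, a factor translated under the same control as ATF4, was at 66.4, 70.2 and 78.7 CPM with arsenic, 35.8, 31.8 and 25.6 with cadmium and 65.2, 58.7 and 46.9 without treatment. The difference of 1.22 (adjusted p = 6.51e-09) held a fall with cadmium (LFC -0.88, adjusted p = 2.23e-05). The arsenic libraries lay above the non-treated ones, by an LFC of 0.34 that did not pass the test (adjusted p = 0.18). PHGDH and SHMT2, enzymes of serine and glycine metabolism, were higher with arsenic by an LFC of 0.64 and 0.53.

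On the cadmium side, PPP1R15A, the phosphatase subunit GADD34 that restores translation, had 56.6, 60.1 and 57.6 CPM with arsenic, 134, 148 and 141 with cadmium and 29.1, 32.1 and 22.8 without treatment. All 3 groups were separate, and the LFC between the metals was -1.28 (standard error 0.15, adjusted p = 5.24e-10). ATF3, a stress-induced repressor, had 12.9, 17.0 and 14.5 CPM with arsenic and 29.5, 28.2 and 33.4 with cadmium (LFC -1.04, adjusted p = 0.00394). GDF15, a secreted stress cytokine, had 12.6, 12.9 and 17.4 CPM with arsenic and 27.2, 27.3 and 32.0 with cadmium (LFC -1.01, adjusted p = 0.00636, and 0.05398 without arsenic replicate 1). DDIT3, the pro-apoptotic factor CHOP, did not pass the test. Its libraries had 32.8, 31.9 and 28.7 CPM with arsenic and 34.9, 35.7 and 38.3 with cadmium (LFC -0.22, standard error 0.18, adjusted p = 0.558), and both groups lay above the non-treated 11.2, 9.26 and 8.12.

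The cytosolic tRNA synthetases, which load amino acids onto tRNA, lay on the arsenic side: 9 of 20 were higher with arsenic and 0 with cadmium (median LFC 0.29), and 5 without arsenic replicate 2. AARS1 for alanine had 204, 227 and 175 CPM with arsenic, 118, 127 and 111 with cadmium and 132, 130.3 and 127 without treatment. Every arsenic library lay above all others, and cadmium was not separated from non-treated cells (LFC between the metals 0.76, standard error 0.14, adjusted p = 7.26e-05), and SARS1 for serine showed the same order, with 257, 229 and 238 CPM against 161, 166 and 150.3 (LFC 0.60, adjusted p = 0.000115). Of 22 tested amino acid transporters, 3 were higher with arsenic and 0 with cadmium (median LFC 0.03): SLC7A11, the glycine transporter SLC6A9 and the neutral amino acid transporter SLC1A4. SLC6A9 had 28.0, 25.9 and 32.6 CPM with arsenic and 7.71, 16.6 and 11.2 with cadmium, against 7.83, 10.2 and 10.7 without treatment (LFC 1.25, adjusted p = 9.72e-05). SLC1A4 had 67.0, 62.4 and 66.0 CPM with arsenic and 36.3, 41.2 and 39.3 with cadmium (LFC 0.74, adjusted p = 0.00129). The large transporter SLC7A5 was nearly equal with both metals (LFC 0.02, adjusted p = 0.972).

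**Figure D3:**
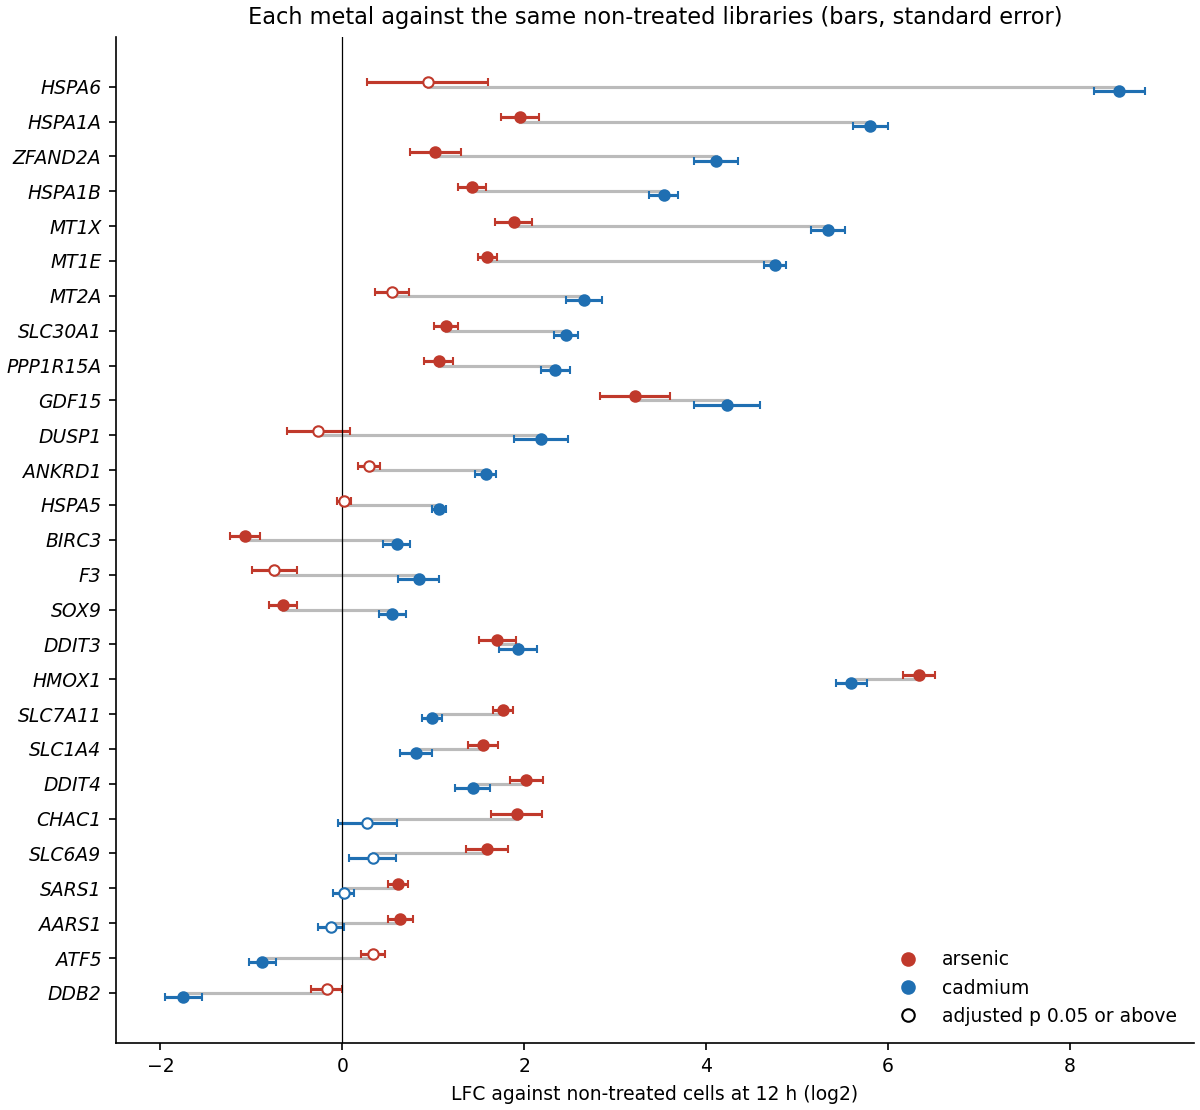
LFC of arsenic (red) and of cadmium (blue) at 12 h over the same 3 non-treated libraries for 27 genes, with standard errors as bars and open circles for an adjusted p of 0.05 or above. For BIRC3 and SOX9 the metals stand on opposite sides of 0, and for HSPA5 and HSPA6 only cadmium passes the test.

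Targets of p53 divided evenly, with 3 of 26 higher with arsenic, 3 with cadmium (backgrounds 1.9% and 3.87%) and a median LFC of 0.06. DDB2, a DNA damage recognition factor, was the second largest difference towards arsenic when genes averaging under 30 counts are set aside. It had 62.5, 58.7 and 46.3 CPM with arsenic, 14.97, 20.1 and 20.4 with cadmium and 68.2, 65.5 and 55.0 without treatment. Arsenic overlapped non-treated cells and, as with ATF5, cadmium lay below both (LFC between the metals 1.57, standard error 0.20, adjusted p = 2.53e-08, and LFC of cadmium over non-treated cells -1.75, adjusted p = 5.68e-10). TP53I3 showed the same order (LFC 0.75, adjusted p = 0.00793). On the cadmium side stood CDKN1A, the cell cycle inhibitor p21, with 65.8, 68.8 and 55.8 CPM against 41.8, 42.6 and 29.2 with arsenic (LFC -0.75, adjusted p = 0.00122), and GADD45B, a stress sensor of MAPK signalling, with 118, 109 and 135 CPM against 57.4, 61.3 and 65.0 (LFC -0.98, adjusted p = 3.46e-10).

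Among the remaining genes most raised with arsenic relative to cadmium, some lay lower with cadmium than without treatment. ATOH8, a transcription factor, had 51.8, 54.9 and 36.8 CPM with arsenic, 23.6, 24.7 and 13.3 with cadmium and 39.2, 36.7 and 55.8 without treatment (LFC between the metals 1.22, adjusted p = 8.78e-06). C21orf91 had 50.2, 65.3 and 80.2 CPM with arsenic and 27.2, 27.3 and 28.4 with cadmium (LFC 1.24, adjusted p = 7.43e-06), and the kinase gene DYRK4 had 23.5, 20.1 and 18.4 against 12.7, 7.79 and 7.02 (LFC 1.20, adjusted p = 0.000245). Both were lower than in non-treated cells with cadmium, by an LFC of -0.84 and -0.96. A long non-coding RNA, ENSG00000261327, was instead raised by both metals, from at most 4.71 CPM. It reached 37.0, 38.5 and 33.4 CPM with arsenic and 12.2, 17.9 and 19.3 with cadmium (LFC 1.12, adjusted p = 0.00338). FAXC, RASSF7, RHEBL1 and LGALS8 belong to the same group, with an LFC of 1.37, 1.31, 1.27 and 1.15. Each lost its call without single libraries, with an adjusted p of up to 0.1121, 0.07261, 0.1139 and 0.2266. No statement is made on their levels against non-treated cells.

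The counts for housekeeping and growth programs stand beside backgrounds of 1.9% of all tested genes higher with arsenic and 3.87% with cadmium. Of the tested members, 2 of 29 proteasome subunits were higher with arsenic and 0 with cadmium, but 0 were higher with arsenic with no filter on low counts, with only the 6 libraries, or without any one of arsenic replicates 1 and 2 and cadmium replicates 1 and 2. In addition, 0 of 24 cholesterol synthesis genes and 0 of 13 mitochondrially encoded respiratory genes passed in either direction, and among 48 DNA replication genes 1 passed on each side. In the G2 and mitosis list 4 of 43 were higher with cadmium, led by the kinetochore subunit NUF2, at 131, 147 and 184 CPM with arsenic, 194, 251 and 247 with cadmium and 209, 204 and 226 without treatment (LFC -0.59, adjusted p = 0.000112). In the polyamine list 4 of 11 were higher with cadmium, but 2 without arsenic replicate 1, cadmium replicate 1 or cadmium replicate 3. Of these, SAT1, which acetylates spermidine, was at 86.2, 94.8 and 98.3 CPM against 63.6, 49.5 and 58.9 with arsenic (LFC -0.70, adjusted p = 0.000515). Of 34 glycolysis and hypoxia-response genes 2 were higher with cadmium (1 without arsenic replicate 1, arsenic replicate 3 or cadmium replicate 2) and 1 with arsenic, and ADM, a vasodilator peptide gene, had 237, 255 and 272 CPM with cadmium and 131, 133 and 124 with arsenic (LFC -0.98, adjusted p = 2.67e-11). Of 27 autophagy and ubiquitin genes, 3 were higher with arsenic and 2 with cadmium. The 3 became 1 without arsenic replicate 1 or cadmium replicate 2, and the 2 became 0 with no filter on low counts or without arsenic replicate 1, arsenic replicate 2 or cadmium replicate 3, and 1 without cadmium replicate 2.

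Some large differences rested on libraries that disagreed. RABGGTB, a subunit of the enzyme that lipid-modifies Rab proteins, had 8.69, 11.2 and 26.3 CPM with arsenic and 98.0, 101 and 158 with cadmium, but 10.3, 73.2 and 21.0 in non-treated cells. The metals did not overlap (LFC -2.94, standard error 0.74, adjusted p = 0.00659), whereas the non-treated libraries reached from the one group nearly to the other, and the call was lost without arsenic replicate 1 (adjusted p = 0.0635) or arsenic replicate 2 (adjusted p = 0.05189). ENSG00000289942, a short non-coding RNA gene (chr4:68376551-68376665) of which 3 of 66 stretches of 50 bases also occur in MT2A, had 245, 226 and 225 CPM with arsenic and 875, 1388 and 1296 with cadmium (LFC -2.36), and reads of MT2A in its counts were not tested. FBXO32, a muscle-wasting ubiquitin ligase gene, was clearer at low level, with 18.1, 20.1 and 17.2 CPM with cadmium, 2.24, 3.45 and 7.1 with arsenic and at most 1.54 without treatment (LFC -2.10).

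To place the 12 h difference in time, it was set beside the difference between the same metals at 6 h and at 24 h. The arsenic-cadmium difference changed between 6 and 12 h for 31 genes, 0.251% of those tested, and between 12 and 24 h for 447 genes, 3.62%. The second number was 145 without cadmium 24 h replicate 3 and 693 without arsenic 12 h replicate 3, so it depends strongly on single libraries.

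Between 6 and 12 h the difference moved towards cadmium for 23 of the tested genes and towards arsenic for 8. Of the 41 tested heat-shock genes, 8 moved towards cadmium, BAG3, DNAJB1, HSPA1A, HSPA1B, HSPA6, HSPH1, IER5 and ZFAND2A, and 0 towards arsenic. HSPA6 had 13.95 ± 1.54 CPM (SD, n = 3) with arsenic and 65.1 ± 10.1 with cadmium at 6 h, and 1.46 and 294.5 CPM at 12 h, so that its level with arsenic had come down while that with cadmium had gone up (change in LFC -5.39, adjusted p = 8.61e-18). HSPA1A went from 81.1 ± 8.44 to 45.3 CPM with arsenic and from 153 ± 11.0 to 655.5 with cadmium (change in LFC -2.94, adjusted p = 1.25e-16). Of the 34 tested ER genes, HSPA5 and MANF changed. HSPA5 was nearly equal at 6 h, with 1010 ± 68.7 CPM for arsenic and 1024 ± 12.6 for cadmium, and the change in LFC to 12 h was -1.03 (adjusted p = 7.84e-11). The change in LFC was -0.72 for MANF (adjusted p = 0.000133), and SLC7A11 moved towards arsenic (change in LFC 0.69, adjusted p = 0.0171).

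Between 12 and 24 h the difference moved towards arsenic for 263 of the 12341 tested genes and towards cadmium for 184. It moved towards arsenic for 16 of the 39 tested NRF2 targets, 13 of the 34 ATF4 pathway genes and 6 of the 34 ER genes, and towards cadmium for 0 of each list. These list counts were not repeated with libraries left out. Among the named members, the call was lost in 11 of 15 alternatives for WARS1, 10 for DDIT3, 9 for ABCC1, 4 for PPP1R15A and 1 for MANF. It held in all 15 for HMOX1, SLC7A11, SQSTM1, GDF15 and HSPA5. Of 41 heat-shock genes 5 moved towards arsenic and 1 towards cadmium, of 31 immediate-early genes 3 and 2, and of 24 cholesterol synthesis genes 0 and 5. Of the 38 genes higher with arsenic at 12 h by an LFC over 1, 5 changed by 24 h, each towards cadmium, and ATOH8 was among them (change in LFC -0.98, adjusted p = 0.0275). These 38 genes were chosen by the 12 h difference that the change subtracts. The choice itself therefore favours a move towards cadmium, and no conclusion is drawn from the shared direction. HSPA5 with cadmium was at 1303 ± 172 CPM at 24 h against 1083 ± 6.26 with arsenic (change in LFC 0.79, adjusted p = 6.26e-07). HMOX1 reached 2417 ± 181 CPM with arsenic at 24 h and had fallen to 359 ± 72.6 with cadmium (change in LFC 2.01, adjusted p = 1.16e-12). SLC7A11 behaved likewise, at 642 ± 35.3 and 166 ± 4.14 CPM (change in LFC 1.17, adjusted p = 1.29e-07). GDF15 crossed over: higher with cadmium at 12 h, it had 88.7 ± 12.2 CPM with arsenic and 22.3 ± 7.96 with cadmium at 24 h (change in LFC 3.01, adjusted p = 4.02e-09). GADD45B parted further in the cadmium direction, to 39.2 ± 4.25 CPM with arsenic and 164 ± 13.2 with cadmium (change in LFC -1.08, adjusted p = 3.72e-06). The metallothionein difference was already wide at 3 h, with an LFC of -1.94 for MT1E, and narrowed from -3.16 at 12 h to -2.47 at 24 h (change 0.69, adjusted p = 0.00186), while MT1X kept an LFC of -3.48 at 24 h.

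**Figure D4:**
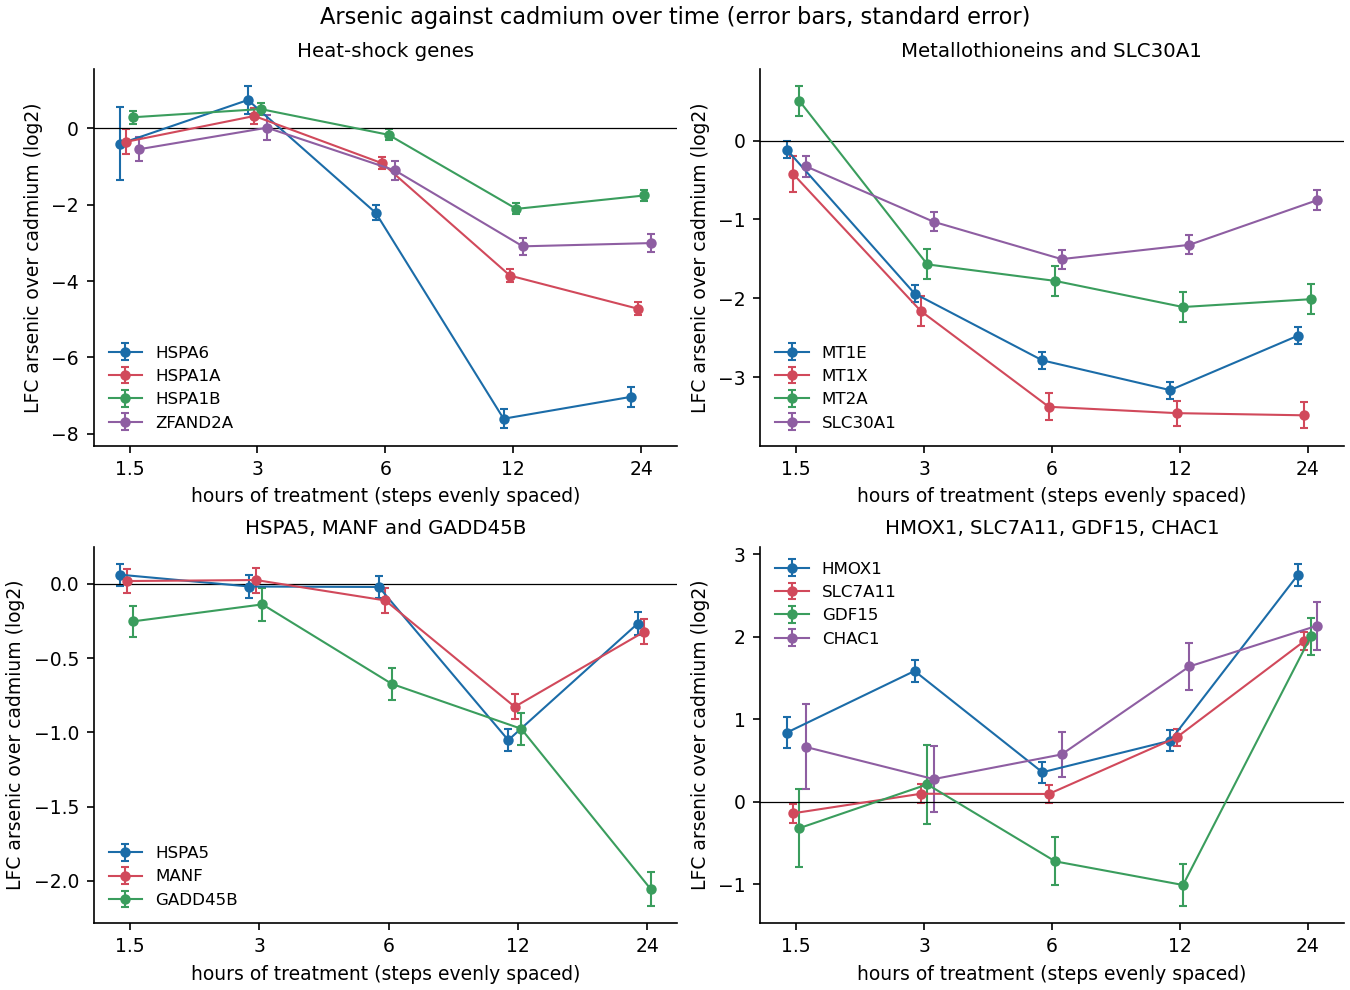
LFC of arsenic over cadmium from 1.5 h to 24 h (5 time points, steps evenly spaced) with standard errors, for heat-shock genes, metallothioneins with SLC30A1, the ER genes HSPA5 and MANF with GADD45B, and for HMOX1, SLC7A11, GDF15 and CHAC1. HSPA6 turns from 0.75 at 3 h to -7.61 at 12 h, HSPA5 is lowest at 12 h, and GDF15 crosses from -1.01 at 12 h to 2.01 at 24 h.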

How the data were processed

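The 3′ mRNA reads had been aligned by the authors to GRCh38 with STAR 2.7.9a and counted on GENCODE basic exons, by strand and in Union mode, which drops reads that overlap several genes. They deposited whole-number counts per gene without normalization for all 60 libraries, with 62703 genes and 92 spike-in rows that held 0 counts. The 60 libraries, in 20 groups of metal and time, entered a single model in edgeR 4.0.16 under R 4.3.3. Genes were kept by filterByExpr (minimum count 10, minimum total 15), which left 12341, and normalized by TMM (factors 0.934 to 1.03). CPM are TMM-normalized. Arsenic and cadmium at 12 h were compared by the quasi-likelihood test with Benjamini-Hochberg adjustment over all tested genes, and every adjusted p in the text is from this test unless another is named. Differences between time points are contrasts of the same fit.

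The rule for named genes took the 12 with the largest LFC in each direction among differentially expressed genes averaging 30 counts or more. It also took the metallothioneins and zinc transporters, the 3 leading members of every list and some preset genes. Not all of the 90 genes it gave are described. CCNE1 and IL11, for example, are not, and both lost their call without single libraries. Further members (such as ATF4, JUN, KLF2, XBP1, GCLM, HSPA8, DNAJB1, TP53I3 and CDKN1A) were named after their values were seen. The comparison, its gene lists and this rule were chosen with earlier results of these data known. The alternatives were DESeq2 1.42.0, RLE size factors, other filters, fits of fewer libraries, a replicate block, glmTreat and leaving out each library. The test was also run on simulated counts that gave every gene the same spread, so that run does not measure its error rate on the real counts. Depth limits genes under 3 counts per library, taken as the floor. Mercury and the genetic screens were not analysed here. Results for 1 gene are not reported here.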

Additional observations from a re-analysis of the deposited data

Results flagged for a closer look

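For 25 of the named genes the arsenic-cadmium difference at 24 h was not the same as at 12 h in a test of the change itself (edgeR quasi-likelihood test of the interaction, adjusted over all genes). Given as the LFC of arsenic over cadmium at 24 h minus that at 12 h, the changes towards arsenic were 5.40 for HSPB8 (adjusted p = 0.00757), 3.80 for RABGGTB (0.0213), 3.01 for GDF15 (4.02e-09), 2.97 for CRTC2 (0.0414), 2.01 for HMOX1 (1.16e-12), 1.25 for ABCC1 (0.031), 1.18 for F3 (0.0354), 1.17 for SLC7A11 (1.29e-07) and 1.09 for SLC39A14 (0.00186). Smaller ones were 0.95 for ATP13A3 (0.0152), 0.89 for DDIT3 (0.0379), 0.84 for AZIN1 (0.0274), 0.81 for CCN1 (0.02), 0.80 for MAP1LC3B (0.0075), 0.79 for HSPA5 (6.26e-07), 0.75 for ANKRD1 (0.00325), 0.75 for PPP1R15A (0.0233) and 0.73 for WARS1 (0.0449). The least were 0.69 for MT1E (0.00186), 0.59 for SQSTM1 (0.00219), 0.57 for SLC30A1 (0.0476) and 0.51 for MANF (0.00785). Changes towards cadmium were -1.08 for GADD45B (3.72e-06), -0.98 for ATOH8 (0.0275) and -0.87 for HSPA1A (0.0233). The call held in all alternatives run for GADD45B, GDF15, HMOX1, HSPA5, HSPB8, MT1E, SLC7A11 and SQSTM1. For HSPB8 these do not include DESeq2, which gave no adjusted p. Its change also rests on 2, 4 and 0 counts in the arsenic libraries of 12 h, so its size is imprecise. Genes named for a large 12 h difference were chosen on values that the change subtracts, which favours a smaller difference at 24 h.

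Between 6 and 12 h, 8 of the genes reported here changed in the same test. The LFC at 12 h minus that at 6 h was -5.39 for HSPA6 (adjusted p = 8.61e-18), -2.94 for HSPA1A (1.25e-16), -2.66 for FBXO32 (0.0341), -1.99 for ZFAND2A (0.000202), -1.94 for HSPA1B (7.84e-11), -1.03 for HSPA5 (7.84e-11), -0.72 for MANF (0.000133) and 0.69 for SLC7A11 (0.0171). The call was lost in at least 1 alternative for FBXO32 and SLC7A11. Here too, genes named for a large 12 h difference were chosen on values that enter the change.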

How the results depend on the processing

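The number of genes that differed between arsenic and cadmium at 12 h was 156, and it was 160 with DESeq2, 153 with RLE size factors, 147 with no filter on low counts, 149 with a minimum count of 30, 165 with only the 6 libraries and 166 with only the 12 libraries of 12 h. DESeq2 shared 144 of its 160 genes with the 156, and the fit with no filter 126 of its 147. The test against an LFC of 1 (glmTreat of edgeR) called 17 genes, all higher with cadmium, and 0 higher with arsenic, where the quasi-likelihood test called 38 and DESeq2 42. Leaving out 1 library gave 111 to 188 genes in all, 23 to 40 higher with arsenic, 87 to 148 higher with cadmium and 397 to 746 at an adjusted p under 0.05 whatever the LFC (712 with all libraries). That last number was 397 without arsenic replicate 1, 447 without arsenic replicate 2, 470 without cadmium replicate 2 and 442 without cadmium replicate 3. The change of the difference from 12 to 24 h, found for 447 genes, ranged from 145 to 693, and that from 6 to 12 h, found for 31, ranged from 16 to 33 and was 47 with DESeq2.

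The replicate numbers were not taken as pairs: deviations of same-numbered arsenic and cadmium libraries correlated at 0.0467, -0.00115 and 0.141, and not every library correlated best with its own number. With a replicate block, 191 genes differed at 12 h, 1035 passed the adjusted p alone, 99 changed from 12 to 24 h and 46 from 6 to 12 h. The block was fitted to only the 6 libraries for 12 h. For each change it was fitted to the arsenic and cadmium libraries of both time points. Without a block, only the 6 libraries gave 165 and 756 genes. No such fit was run for the changes, so there the block and the smaller fit cannot be told apart.

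Of the 90 named genes, 75 passed the test. Of these, 48 passed it in the same direction in all alternatives run other than glmTreat, and 13 in glmTreat as well. The other 15 passed in 0 of the alternatives, and 6 of them changed sign in at least 1. CRTC2 and MYC lost their call with DESeq2 (adjusted p = 0.0855 and 0.05229). Leaving out each non-treated 12 h library in turn, an alternative chosen after seeing the data, gave 150 to 157 genes between the metals. It gave 67 to 77 genes higher and 16 to 28 lower with arsenic than in non-treated cells by an LFC beyond 1 (16 without non-treated replicate 1), and 136 to 182 higher and 41 to 54 lower with cadmium. The causes of these shifts were not tested.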

Other observations

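Further genes differed between the metals, with LOX, ATP13A3 and DUSP5 higher with cadmium and PHLDA3 higher with arsenic. LOX, which crosslinks collagen, had 232, 276 and 313 CPM with arsenic, 383, 425 and 426 with cadmium and 204, 228 and 231 without treatment, so the metals did not overlap (LFC -0.59, edgeR adjusted p = 0.000553). ATP13A3, a polyamine transporter, had 55.2, 59.2 and 85.2 CPM with arsenic and 119, 108 and 128 with cadmium, but one of the non-treated libraries, at 89.6, lay above all arsenic libraries (LFC -0.83, edgeR adjusted p = 0.000654). DUSP5, a nuclear phosphatase of ERK, had 28.6, 22.7 and 26.3 CPM with arsenic and 71.2, 60.1 and 52.3 with cadmium, with arsenic not separated from non-treated cells by the test (LFC between the metals -1.23, edgeR adjusted p = 1.67e-06). PHLDA3, a p53 target that restrains AKT, was raised by arsenic over non-treated cells (LFC 0.49, edgeR adjusted p = 0.0133). It had 74.5, 88.0 and 63.4 CPM with arsenic against 45.4, 39.9 and 36.5 with cadmium (LFC between the metals 0.90, edgeR adjusted p = 1.65e-06). Of the stretches at its 3′ end, 23.6% also occur in another gene.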
